A study of Mus musculus with 9 samples.

Results

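The comparison described here is that of Shank3 mutant mice given the compound UNC0642 with Shank3 mutant mice given saline, in prefrontal cortex. It rests on 6 of the 9 libraries of the study, 3 from each group, chosen by their labelled genotype and treatment alone, and on all 14444 genes of the deposited table. UNC0642 was given by daily intraperitoneal injection over 3 days, each of 1 mg per kg, and all mice were in postnatal weeks 5 to 8. The labels give the mutant genotype only as SHANK3, without the allele or its zygosity, and both groups carry it. The other 3 libraries, from wild-type mice given saline, entered the estimate of the spread. Total RNA was depleted of ribosomal RNA and made into stranded libraries. As no label states that each library is a separate animal, the spread behind the p-values may be technical.

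SHANK3 is a scaffold protein of the excitatory postsynapse that links glutamate receptors, through their anchoring proteins, to the actin cytoskeleton. EHMT1 and EHMT2 (also called GLP and G9a) are methyltransferases that work as a complex and add 1 or 2 methyl groups to lysine 9 of histone H3 (H3K9), modifications found at silenced genes. UNC0642 is a small-molecule inhibitor of their catalytic activity, so the levels of their own transcripts do not measure its action. The title of the study gives its question as whether targeting these enzymes relieves social deficits of Shank3-deficient mice, and the RNA libraries ask which transcripts differ under the compound.

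Reads recovered from the deposited values came to 12548293, 15227237 and 14345248 in saline replicates 1, 2 and 3 and to 12233543, 16165483 and 15139774 in UNC0642 replicates 1, 2 and 3. Values below follow this order, saline first. The excitatory neuron genes Slc17a7, Neurod6 and Tbr1 were read in every library, Slc17a7 with 23028 to 29641 reads and Tbr1 with 1486 to 2200 in the 6 mutant libraries.

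The 3 UNC0642 libraries were not alike, and this bears on every result. The deposited values had been centred on the log2 scale, gene by gene, over 2 sets of libraries: UNC0642 replicates 2 and 3 share a set with the wild-type libraries, and UNC0642 replicate 1 shares a set with the saline mutant libraries. The difference of UNC0642 replicate 1 from saline is therefore as it was before centring, while the differences of replicates 2 and 3 had the gap between the sets taken off. The group difference lost 0.667 of that gap, and the gap had an SD of 0.342 over genes on the log2 scale. Before centring, the log2 differences from the saline mean had an SD over genes of 0.273 in UNC0642 replicate 1, 0.242 in replicate 2 and 0.423 in replicate 3. After centring these became 0.273, 0.357 and 0.194. Each saline library differed from the mean of the other 2 by an SD of 0.282, 0.296 or 0.275. A mean of 2 libraries is noisier than a mean of 3, so these compare only roughly with the SDs of UNC0642 replicates 1 and 2. An SD over all genes does not test a treatment effect. UNC0642 replicate 3 stood apart before centring: 19 genes separated all wild-type from all saline mutant libraries by 8-fold or more, and for these it lay on the wild-type side for 19, and replicates 1 and 2 for 0. Why a library labelled as a mutant lies with the wild type there was not tested. Each result is accordingly given on the deposited values of all 6 libraries and on the recovered reads of 5, namely the 3 saline libraries with UNC0642 replicates 1 and 2, and the library-wise differences before centring are added where they part.

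**Figure D1:**
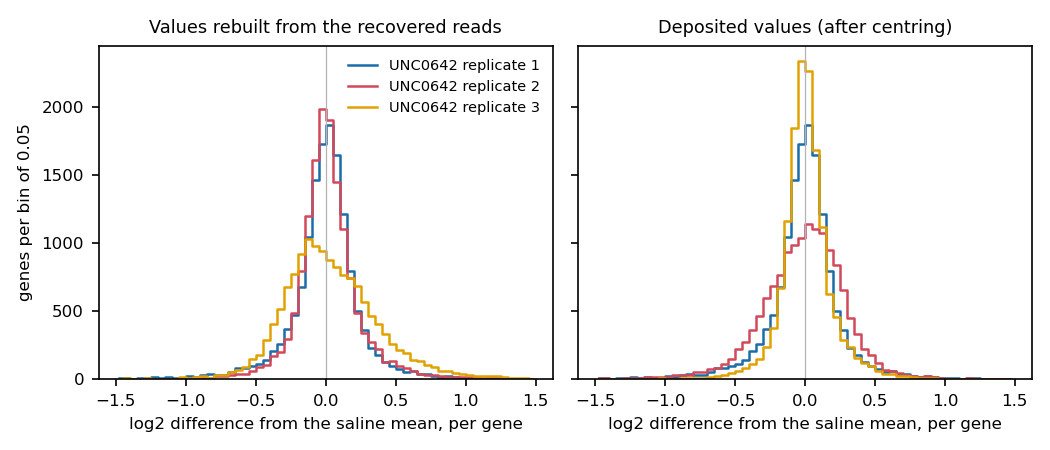
Genes (y axis, per bin of 0.05) by their log2 difference from the mean of the 3 saline mutant libraries (x axis), for each UNC0642 library, on values rebuilt from the recovered reads (left) and on the deposited values (right). UNC0642 replicate 3 has the widest curve before centring (SD 0.423) and the narrowest after it (SD 0.194), replicate 2 widens from 0.242 to 0.357, and replicate 1 stays at 0.273.

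No gene passed the test. In limma on the deposited values, 0 genes (0.0%) were called higher and 0 (0.0%) lower at an adjusted p under 0.05, and the smallest adjusted p was 1.0. At an unadjusted p under 0.05 there were 113 genes higher (0.782% of those tested) and 168 lower (1.16%), together 1.95%. This fit takes the libraries as independent, while centring had tied their values within genes, so its p-values are approximate. In limma-voom on the reads of 5 libraries, 0 (0.0%) were called in either direction, with a smallest adjusted p of 0.41, against 345 higher (2.39%) and 515 lower (3.57%) at an unadjusted p under 0.05. Differences were small: the median absolute log2 difference was 0.08 in the deposited values and 0.09 in the reads, and 63 genes (0.436%) reached 1.5-fold in the deposited values. In simulated data of 14444 genes with 200 changed by a log2 size of 0.5, the fit to the 5 libraries called 113 of them and the fit to centred values 106. At a log2 size of 1 they called 164 and 167. The fit to the 5 libraries also called 11 unchanged genes at each size, and the fit to centred values 0. All simulated libraries were drawn around the saline mean, with the spread of the 5 libraries. They held no gap between the sets and no library that stood apart, so the counts do not carry over to the fit on the deposited values. The deposited groups did not overlap for 458 genes with UNC0642 above saline (3.17%) and 442 below (3.06%). In the reads of 5 libraries the groups were apart for 1479 genes above (10.2%) and 1680 below (11.6%), and over all 6 libraries for 662 above (4.58%) and 761 below (5.27%).

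The targeted genes come first. Shank3 had deposited values of 333, 344 and 318 in saline and 288, 303 and 322 in UNC0642, which overlap, and 4230, 5307 and 4601 reads against 3594, 4819 and 4830. In CPM, reads scaled to a common library size, these are 339, 350 and 324 in saline and 294, 296 and 316 in UNC0642, so that all 3 treated libraries lay below all 3 saline ones. Its log2 fold change was -0.12 (SE 0.08) in the deposited values and -0.19 (SE 0.05) in the reads of 5 libraries, with limma adjusted p of 1.0 and 0.78. Ehmt1 did not separate, at 32.3, 35.9 and 34.1 CPM against 33.7, 34.1 and 36.8. Ehmt2 had 260, 248 and 243 CPM in saline and 233, 215 and 220 in UNC0642, again without overlap, a log2 fold change of -0.16 (SE 0.06) in the reads of 5 libraries (limma-voom adjusted p = 0.78) and of -0.04 (SE 0.08) after centring. Arc, an immediate early gene whose protein drives removal of AMPA receptors from synapses, was spread widely, with 265, 352 and 313 CPM in saline and 373, 227 and 300 in UNC0642.

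Among the 24 genes of smallest p in the deposited values, 12 in each direction, the groups were apart for 23 and overlapped for Erdr1. These values chose the genes, so the counts describe them only. All 24 had the same sign in the reads of 5 libraries, and 17 kept the groups apart there. Those 5 libraries were among the libraries whose deposited values chose the genes, so these counts are no independent check.

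On the higher side, Cntnap4 was the only gene among those of smallest p in both fits. It encodes a contactin-associated protein of the neurexin family found in interneurons. It had 494, 730 and 690 reads in saline and 789, 946 and 757 in UNC0642, or 39.6, 48.2 and 48.7 CPM against 64.6, 58.2 and 49.5. All 3 treated libraries lay above all 3 saline ones, UNC0642 replicate 3 only just. The log2 fold change was 0.41 (SE 0.11) in the deposited values and 0.42 (SE 0.10) in the reads of 5 libraries, with limma adjusted p of 1.0 and 0.64. Cbln1, a secreted synaptic organizer that binds neurexins, was less steady: its deposited values were 9.34, 12.3 and 8.88 against 13.7, 16.0 and 13.1, but before centring UNC0642 replicate 3 differed from saline by -0.11 on the log2 scale.

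The transcript A930005H10Rik stood higher under UNC0642, with 93, 83 and 82 reads in saline and 157, 126 and 173 in UNC0642, a log2 fold change of 0.75 (SE 0.18) in the deposited values. The transmembrane protein gene Tmem169 had 19.5, 16.6 and 18.1 CPM against 23.1, 23.7 and 20.4. The zinc finger transcription factor gene Klf5 had 6.34, 6.21 and 7.05 CPM against 10.5, 7.13 and 7.25, where a single treated library carries most of the difference. The transcript 1700003M02Rik had 16, 15 and 15 reads against 36, 29 and 29. These 4 genes, like Cntnap4, kept all treated libraries above all saline ones before centring. Myh3 (embryonic myosin heavy chain), Ramp3 (a partner protein of calcitonin-family receptors), Dhrs7b (a peroxisomal enzyme of ether lipid synthesis), Izumo4, A730017C20Rik and Gm11978 did so only for UNC0642 replicates 1 and 2. In UNC0642 replicate 3 these 6 stood below the saline mean before centring, from -0.12 for Izumo4 to -1.09 for Gm11978 on the log2 scale.

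On the lower side, Acan and Dynlt1b had the smallest p, both at low depth. Acan encodes aggrecan, the core proteoglycan of the perineuronal net around parvalbumin interneurons. It had 15, 29 and 14 reads in saline and 4, 20 and 41 in UNC0642, so that UNC0642 replicate 3 had the most and replicate 1 the fewest. Its log2 fold change in the deposited values was -0.95 (SE 0.25), yet UNC0642 replicates 2 and 3 differed from saline by -0.09 and 0.91 before centring and by -1.61 and -0.61 after it. Dynlt1b, a dynein light chain gene with near-identical copies whose counts are uncertain, had 11, 12 and 20 reads in saline and 0, 4 and 17 in UNC0642. Lrrc38, an auxiliary subunit of large-conductance potassium channels, had 31, 48 and 32 reads against 10, 40 and 25.

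Mcm4, a subunit of the replicative helicase, was the only one of the 12 lower genes with all 3 treated libraries below all 3 saline ones before centring. It had 136, 170 and 133 reads in saline and 78, 133 and 139 in UNC0642, or 10.9, 11.2 and 9.38 CPM against 6.38, 8.18 and 9.08, a log2 fold change of -0.49 (SE 0.15) in the deposited values. Of the others, Prkca (protein kinase C alpha) differed by -0.22 (SE 0.07), the small GTPase Rasd2 by -0.24 (SE 0.08) and Itpkb, which phosphorylates inositol trisphosphate, by -0.33 (SE 0.15) on the log2 scale in the reads of 5 libraries, each with those groups apart. The lipid kinase gene Pik3c2b and the endothelial receptor gene Adgrl4 overlapped in those reads. Erdr1, which lies in the pseudoautosomal region, had 951, 1475 and 653 reads against 308, 1007 and 896, and its saline libraries alone spanned more than its group difference. Ankdd1b had 102, 123 and 102 reads in saline and 38, 97 and 114 in UNC0642.

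**Figure D2:**
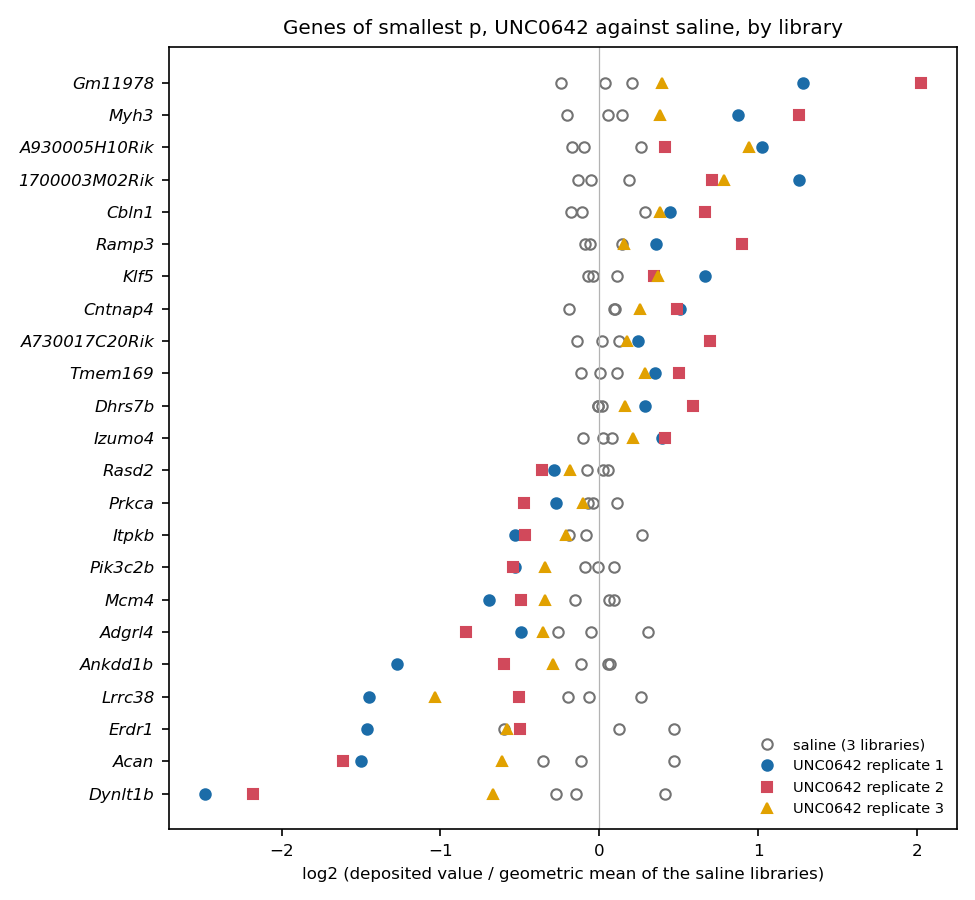
Of the 24 genes of smallest p, 23 (rows), with each library's deposited value as a log2 ratio to the geometric mean of the 3 saline mutant libraries (x axis); open circles are saline, filled symbols the UNC0642 libraries. UNC0642 replicate 3 lies nearest to saline for 18 of the 23 genes shown, as for Dynlt1b (-0.66 against -2.48 and -2.18), and Erdr1 is the gene whose groups overlap.

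The reads of 5 libraries brought up another set of genes, whose groups mostly overlap in the deposited values. Serinc2, a serine incorporator family gene, had 57, 61 and 58 reads in saline and 97, 142 and 125 in UNC0642, or 4.57, 4.03 and 4.09 CPM against 7.94, 8.73 and 8.17. The 2 groups were far apart relative to their spread in all 6 libraries, with a log2 fold change of 0.99 (SE 0.20) in the reads of 5 libraries (limma-voom adjusted p = 0.64). The wild-type libraries lay higher still, at 15.7, 19.6 and 14.9 CPM. As the wild-type set was also the set of UNC0642 replicates 2 and 3, centring removed a gap of 1.32 from those libraries, and the deposited log2 fold change was 0.06 (SE 0.25). Rsrp1, an arginine- and serine-rich protein gene, was also lowest in saline, with 116, 154 and 134 CPM in saline, 183, 174 and 170 in UNC0642 and 171, 171 and 172 in wild type. The transcript 1190002N15Rik ran the other way, with 56.9, 52.5 and 50.7 CPM in saline, 40.2, 38.7 and 41.0 in UNC0642 and 42.1, 35.4 and 40.0 in wild type. For these last 2 genes the treated libraries lay at about the wild-type level and apart from saline; they were named for their difference from saline, and whether they differ from wild type was not tested. As the wild-type libraries lie on the other side of the division of the reads, genotype and division cannot be told apart in their values.

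Camk2a had the smallest p on the lower side of the reads. It encodes the alpha subunit of calcium/calmodulin-dependent kinase II, a main kinase of the postsynaptic density. It had 64627, 80610 and 68537 reads in saline and 50040, 71743 and 73716 in UNC0642, or 5190, 5320 and 4830 CPM against 4090, 4410 and 4820. All treated libraries were lower, replicate 3 only just, and the log2 fold change was -0.26 (SE 0.05) in the reads of 5 libraries, with a limma-voom adjusted p of 0.41. Ddn, which encodes dendrin, a postsynaptic protein whose messenger RNA is found in dendrites, had 1850, 2030 and 1770 CPM against 1560, 1630 and 1620. The palmitoyltransferase gene Zdhhc14 had 46.7, 49.3 and 39.7 CPM against 32.3, 32.0 and 36.1. Both were lower in all 3 treated libraries. Fam107a, an actin-binding protein gene high in astrocytes, and Slc13a5, a citrate transporter gene, were lower in UNC0642 replicates 1 and 2 (446 and 459 CPM, and 12 and 10.3 CPM) than in any saline library, and UNC0642 replicate 3 was above all saline libraries for both, at 561 and 19 CPM.

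On the higher side, Xrcc6, which encodes the DNA end-binding protein Ku70, had 12.8, 13.6 and 15.6 CPM in saline and 20.5, 20.5 and 13.7 in UNC0642, and Olfm3, an olfactomedin gene, 31.3, 30.6 and 35.1 against 45.5, 40.9 and 35.1. UNC0642 replicate 3 fell within the saline range for Xrcc6 and at its top for Olfm3. Capn11, a calpain gene, had 1, 0 and 6 reads in saline and 26, 55 and 12 in UNC0642, with 1, 14 and 60 in the wild-type libraries, a spread within 1 group as wide as that between groups.

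Gene lists were then read by role. A list is described by its counts and its median log2 fold change, beside the same over all genes, where 51.0% were positive in the deposited values and 50.6% in the reads of 5 libraries, with a median of 0.00 in both. No member of any list was called in either fit. In these bulk samples fewer cells of a type and less RNA per cell cannot be told apart.

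Writers, erasers and readers of H3K9 methylation, the pathway of the inhibited enzymes, were close to even: 13 of 30 were positive in the deposited values (median -0.03) and 12 of 30 in the reads (median -0.01). Zfp644, a zinc finger partner of EHMT1 and EHMT2, was the member that parted most evenly, with 49.4, 51.5 and 52.5 CPM in saline and 62.4, 59.2 and 60.2 in UNC0642, a log2 fold change of 0.25 (SE 0.08) in the reads of 5 libraries. The H3K9 demethylase gene Phf8 overlapped, at 25.2, 26.7 and 25.4 CPM against 21.2, 25.9 and 32.4. Germline genes kept silent in other cells through EHMT1 and EHMT2 were mostly not in the table, with 8 of 28 measured. Of these 8, 1 was positive in the deposited values (median -0.16) and 4 in the reads of 5 libraries (median 0.01). The treated libraries parted before centring, with list medians of -0.10, 0.10 and 0.23 in UNC0642 replicates 1, 2 and 3. In these, 5, 2 and 1 of the 8 genes lay below the saline mean. Sycp3 had 50, 54 and 42 reads in saline and 38, 57 and 106 in UNC0642. Ddx4, an RNA helicase of germ cells, had 70, 83 and 72 reads in saline and 29, 45 and 87 in UNC0642, low in replicates 1 and 2 and not in replicate 3. Tdrd1, a tudor-domain gene of the same cells, had 13, 10 and 17 reads against 5, 20 and 10.

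Scaffold and signalling genes of the excitatory postsynapse, the compartment of SHANK3, were mostly negative, with differences from -0.26 for Camk2a and Homer2 to 0.10 for Abi1 in the reads of 5 libraries. In the reads of 5 libraries 21 of 24 were negative with a median of -0.10, and 13 of 24 (54.2%, against 11.6% of all genes) lay below all saline libraries in both treated ones. Over all 6 libraries before centring, 8 of 24 did so, against 5.27% of all genes. The list medians of UNC0642 replicates 1, 2 and 3 were -0.09, -0.10 and -0.08, with 19, 23 and 15 of 24 members below the saline mean, and Homer1 at 0.49 in replicate 3. Centred values gave 19 of 24 negative and a median of -0.08. Shank2, another Shank scaffold, differed by -0.23 (SE 0.06) in the reads of 5 libraries. There Sipa1l1, a GTPase-activating protein for Rap in the spine, stood at -0.17 (SE 0.05) and Baiap2, a membrane-shaping actin regulator, at -0.07 (SE 0.05). Shank1 stood at -0.15, the anchoring protein gene Dlgap3 at -0.15 and Dlg4, which encodes PSD-95, at -0.10, against 0.01 for Dlgap1 and -0.01 for Camk2b. Summed over the list, CPM were 13520, 13660 and 13020 in saline and 11980, 12130 and 13030 in UNC0642, a sum in which Camk2a weighs most and in which UNC0642 replicate 3 lay at the lowest saline library.

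Receptor genes showed less. Of 29 NMDA, AMPA and kainate receptor genes, 22 were negative in the reads of 5 libraries (median -0.07) and 19 in the deposited values (median -0.03), with list medians of -0.09, -0.05 and 0.00 in the 3 treated libraries. Cacng2, the AMPA receptor auxiliary protein stargazin, had 50.2, 46.7 and 49.4 CPM against 40.0, 43.3 and 55.3, and Neto1, an auxiliary protein of kainate receptors, 69.1, 69.6 and 70.9 against 60.6, 64.3 and 69.6. Both were below saline in UNC0642 replicates 1 and 2. GABA-A receptor and inhibitory scaffold genes had medians of 0.04 and 0.02, with 10 of 15 positive in both fits. The subunit gene Gabra2 stood at -0.33 (SE 0.14) in the deposited values and 0.02 (SE 0.09) in the reads, and Gabra5 at 0.22 (SE 0.14) and 0.20 (SE 0.07).

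The sign of the immediate early genes depended on the fit. They had 23 of 34 members positive in the deposited values (median 0.04) and 25 of 34 negative in the reads of 5 libraries (median -0.06), and the treated libraries disagreed, with list medians of 0.16, -0.19 and -0.10. Dusp1, a phosphatase induced by activity, had 59.9, 56.4 and 57.9 CPM in saline and 67.4, 48.0 and 37.8 in UNC0642, and Klf10 33.6, 39.4 and 53.5 against 66.7, 58.1 and 43.3. For Klf10 the highest saline library lay above UNC0642 replicate 3.

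Delayed activity genes had medians of -0.02 in both fits, with 10 of 20 and 9 of 20 positive; Pim1, a kinase of that list, had 30, 32 and 36 reads in saline and 19, 40 and 27 in UNC0642.

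Genes of inhibitory neurons were uneven. Of 25 interneuron markers, 13 were positive in the deposited values (median 0.00) and 7 in the reads (median -0.05). Pvalb, the calcium-binding protein of fast-spiking interneurons, had 28.8, 22.1 and 31.7 CPM in saline and 21.0, 26.6 and 25.7 in UNC0642, and Cort, the neuropeptide cortistatin, 9.23, 6.80 and 8.39 against 13.3, 7.62 and 6.08. Perineuronal net genes had 13 of 14 members negative after centring (median -0.13) but 8 of 14 in the reads (median -0.02), with list medians of -0.21, 0.03 and 0.37 in the treated libraries. Ptprz1, a receptor phosphatase also made by glia, had 198, 217 and 175 CPM against 152, 181 and 331. Neurexins, neuroligins and contactin-associated proteins had 14 of 23 positive in both fits, with medians of 0.02 and 0.03; after Cntnap4 the member of smallest p in the deposited values was Cntn5, with 10.1, 5.81 and 8.25 CPM against 10.3, 9.59 and 10.1. In the reads of 5 libraries it was Lrrtm2, at 0.17 (SE 0.07), followed by Nrxn2 at -0.15 (SE 0.06).

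Voltage-gated channel genes lay slightly low. Sodium, calcium and HCN channel genes had 18 of 27 negative in the deposited values (median -0.07) and 14 of 27 in the reads (median -0.03), and potassium channel genes 19 of 28 (median -0.07) and 17 of 28 (median -0.04). Kcnip2, a subunit of A-type potassium channels, stood at -0.26 (SE 0.10) in both fits. Scn4b, a sodium channel beta subunit, stood at -0.43 (SE 0.24) in the deposited values and 0.28 (SE 0.15) in the reads, and Cacnb2, a calcium channel beta subunit, at 0.17 (SE 0.09) and 0.04 (SE 0.10).

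Genes of the unfolded protein response had negative list medians in each treated library, while their summed levels lay within the saline range. This response raises chaperones and folding enzymes of the endoplasmic reticulum when unfolded protein builds up there, in part through ATF6 and XBP1, which act at the ER stress response element (ERSE) of promoters. To show the element that part of the list holds, 5 promoter windows are printed, of 3 genes with lower values (Hspa5, Pdia6 and Creld2) and of 2 with differences near 0 (Hsp90b1 and Canx). They are the 150 bases before each gene's start on its own strand, from RefSeq on GRCm38.p6, a build other than the mm9 of the deposited values, with the ERSE in capitals. The windows are chr2:34771940-34772089 (+) for Hspa5, chr12:17266439-17266588 (+) for Pdia6, chr15:88819496-88819645 (+) for Creld2, chr10:86705445-86705594 (-) for Hsp90b1 and chr11:50325674-50325823 (-) for Canx.
Hspa5: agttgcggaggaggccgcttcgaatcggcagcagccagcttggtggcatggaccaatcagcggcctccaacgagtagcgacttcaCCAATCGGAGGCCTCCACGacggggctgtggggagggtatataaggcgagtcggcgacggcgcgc
Pdia6: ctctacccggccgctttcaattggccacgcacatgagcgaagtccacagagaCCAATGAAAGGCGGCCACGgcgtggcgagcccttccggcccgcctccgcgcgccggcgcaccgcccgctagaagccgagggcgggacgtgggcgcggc
Creld2: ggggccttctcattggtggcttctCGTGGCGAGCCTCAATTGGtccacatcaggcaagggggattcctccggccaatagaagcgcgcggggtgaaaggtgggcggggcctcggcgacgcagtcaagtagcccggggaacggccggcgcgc
Hsp90b1: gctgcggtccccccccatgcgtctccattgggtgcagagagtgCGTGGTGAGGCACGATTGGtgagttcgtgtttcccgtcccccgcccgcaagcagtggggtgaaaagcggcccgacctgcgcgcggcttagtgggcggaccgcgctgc
Canx: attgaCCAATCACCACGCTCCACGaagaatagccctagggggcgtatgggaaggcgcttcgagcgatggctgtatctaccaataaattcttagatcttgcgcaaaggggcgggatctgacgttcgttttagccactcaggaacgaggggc
The motif searched was CCAAT and CCACG separated by 9 bases of any kind, on both strands of the 250 bases before the start; in Creld2 and Hsp90b1 the copy shown is on the other strand, and Hsp90b1 holds 1 more copy farther upstream. It was found in 9 of the 23 list genes matched in the promoter table (39.1%), against 0.13% of all 27025 genes in that table and 0.113% of its 32851 promoters. The list holds known targets of the response, so this share is no independent result, and a match does not show that a factor binds there. A second search, for the sterol element SRE (TCACNCCAC), was made with the list of SREBP2 targets described below. It found the element in 1 of 19 matched genes (5.26%), Hmgcs1, against 1.22% of all genes in the promoter table.

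Values differed among the genes with the element, and whether it bears on them was not tested. Of those not printed, Derl3 stood at -0.13, Syvn1 at -0.07 and Dnajc3 and Calr at -0.04 in the reads of 5 libraries. Hspa5, the main chaperone of the compartment, had 4713, 5677 and 4149 reads in saline and 3904, 4550 and 5361 in UNC0642, or 378, 375 and 293 CPM against 319, 280 and 350, with overlap. Pdia6, a disulfide isomerase, stood at -0.21 in the reads of 5 libraries and Creld2, a folding factor, at -0.28, while the chaperones Hsp90b1 and Canx both stood at 0.01. Sdf2l1, an ER chaperone cofactor, was lower in all 3 treated libraries, with 180, 246 and 170 reads against 135, 148 and 176, or 14.4, 16.2 and 12 CPM against 11, 9.10 and 11.5. So was Dnajb11, an HSP40 cofactor, with 63.3, 65.1 and 63.8 CPM against 52.8, 54.3 and 58.3 and a log2 fold change of -0.26 (SE 0.08) in the reads of 5 libraries (limma-voom adjusted p = 0.78). The secreted factor gene Manf had 51.4, 52.0 and 44.4 CPM against 44.8, 45.2 and 46.9. Over the list, 21 of 27 were negative in the deposited values (median -0.14) and 20 of 27 in the reads (median -0.07), with list medians of -0.05, -0.08 and -0.07 in the 3 treated libraries before centring. In the reads of 5 libraries 4 of 27 (14.8%) lay below all saline libraries, near the 11.6% of all genes. Summed CPM were 3255, 3354 and 3001 in saline and 3149, 3011 and 3098 in UNC0642, and 17 of 27 members were below the saline mean in UNC0642 replicate 3. In the branch that runs through the kinase PERK, Atf4 and Eif2ak3, which encodes PERK, both stood at 0.15 in the reads, but Ddit3 at -0.10. Heat shock genes of the cytosol and mitochondria had medians of -0.02 and 0.05, with 15 of 25 positive in the reads. In UNC0642 replicates 1 and 2, 8 of 25 (32.0%, against 10.2% of all genes) lay above all saline libraries. Over all 6 libraries 2 of 25 did so, against 4.58% of all genes. Their summed CPM were 7835, 7835 and 7941 in saline and 8394, 8005 and 7120 in UNC0642, where replicate 3 was the lowest library. Dnajb5 stood at 0.19 (SE 0.08) and Hspa4 at 0.13 (SE 0.06) in the reads, and Bag3 and Hspb1, the members of smallest p in the deposited values, overlapped between groups.

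Sterol synthesis genes and other targets of the transcription factor SREBP2 were mostly higher by a small amount, least so in UNC0642 replicate 3. In the deposited values 26 of 27 were positive, the exception being Scap at -0.03, and in the reads of 5 libraries 23 of 27 were, with a median of 0.10 in both. The list medians of the 3 treated libraries before centring were 0.08, 0.09 and 0.03, with 6, 4 and 10 of 27 members below the saline mean. Summed CPM were 2107, 2100 and 2224 in saline and 2284, 2297 and 2213 in UNC0642, where replicate 3 lay within the saline range. In the reads, 7 of 27 (25.9%, against 10.2% of all genes) lay above all saline libraries in both treated ones, and 4 of 27 did so over all 6 libraries, against 4.58% of all genes. Msmo1, a methylsterol oxidase, was higher in all 3, with 86.1, 85.8 and 97.5 CPM in saline and 106, 105 and 115 in UNC0642, a log2 fold change of 0.23 (SE 0.07) in the reads of 5 libraries (limma-voom adjusted p = 0.78). Fdft1, squalene synthase, had 120, 128 and 132 CPM against 141, 145 and 115, apart only for UNC0642 replicates 1 and 2. Insig1, which holds SREBP2 in the endoplasmic reticulum, and Tm7sf2, a sterol reductase, overlapped between groups in the reads, though in the deposited values Tm7sf2 was higher in each treated library than in any saline one. Insig1 had 1124, 1360 and 1419 reads in saline and 1198, 1616 and 1508 in UNC0642, and Tm7sf2 17.3, 19.3 and 16.9 CPM against 20.4, 17.8 and 17.8. Stard4, a sterol carrier, stood at 0.31 and Mvd, an enzyme of the mevalonate pathway, at 0.21 in the reads, against -0.01 for Lss, lanosterol synthase.

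List medians of deep-layer and upper-layer cortical markers lay on opposite sides of saline in UNC0642 replicates 1 and 2. In replicate 3 both medians lay near saline, but single members did not, such as Rprm at -0.44 and Rorb at 0.66 before centring. Deep-layer excitatory neuron markers had 17 of 23 positive in both fits, with medians of 0.14 and 0.19, and in the reads of 5 libraries 12 of 23 (52.2%, against 10.2% of all genes) lay above all saline libraries in both treated ones. Upper-layer markers had 14 of 18 negative (median -0.14) in the deposited values and 17 of 18 in the reads (median -0.14), with 7 of 18 (38.9%, against 11.6% of all genes) below all saline libraries. Before centring, the deep-layer medians of the 3 treated libraries were 0.18, 0.19 and 0.02 and the upper-layer medians -0.19, -0.11 and 0.00. Rprm, a layer 6 marker, had 756, 1261 and 1054 reads in saline and 1323, 1512 and 811 in UNC0642, or 60.7, 83.3 and 74.3 CPM against 108, 93.0 and 53.0. The corticothalamic markers Foxp2 and Ntsr1 stood at 0.52 and 0.34 and Fezf2, a transcription factor of subcortical projection neurons, at 0.28 in the reads. Tshz2 had 32.5, 28.1 and 36.2 CPM against 35.3, 36.5 and 39.9, and Crym 149, 156 and 155 against 180, 160 and 104, where replicate 3 was the lowest library. Rorb, a layer 4 gene held by both lists, stood at -0.34 (SE 0.13). Among upper-layer genes, Plxnd1 had 73.5, 60.1 and 67.3 CPM against 55.7, 61.4 and 57.6, Cux2 stood at -0.36 and Otof at -0.42 in the reads, and Cdh13 went against the rest at 0.22 (SE 0.08). Pou3f2 overlapped in the reads. Whether the depth or position of the dissected tissue plays a part in these list medians was not tested.

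Astrocyte markers were lower in UNC0642 replicates 1 and 2 and higher in replicate 3. Of 23 markers, 22 were negative in both fits, with a median of -0.18 in both, and 12 of 23 (52.2%, against 11.6% of all genes) lay below all saline libraries in UNC0642 replicates 1 and 2. The list medians before centring were -0.23, -0.11 and 0.23, and the summed level was 7263, 7871 and 7157 CPM in saline and 6269, 6897 and 10110 in UNC0642. S100b, a calcium-binding protein gene, was the 1 marker below saline in all 3 treated libraries, with 103, 93.0 and 90.3 CPM against 80.5, 86.9 and 88.1. Fgfr3, a growth factor receptor, had 109, 125 and 111 CPM against 89.4, 96.7 and 144, Gpc5 40.1, 37.0 and 38.2 against 30.4, 34.4 and 45.0, and Acsbg1, an acyl-CoA synthetase, 154, 157 and 148 against 128, 141 and 170. These 3 show the pattern of the list, with UNC0642 replicate 3 the highest of the 6 libraries.

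Other non-neuronal markers differed between libraries more than between groups. Myelin genes had 9 of 18 positive in the deposited values (median 0.00) and 18 of 18 in the reads of 5 libraries (median 0.51), yet 0 of 18 kept those groups apart, and summed levels were 1846, 4123 and 3826 CPM in saline and 3061, 5720 and 4389 in UNC0642. Saline replicate 1 was the lowest for the list and UNC0642 replicate 2 the highest, as for Opalin, with 47, 123 and 155 reads against 99, 250 and 193. Qdpr overlapped, at 88.3, 118 and 115 CPM against 101, 137 and 116. Meningeal fibroblast markers had list medians of -0.58, 0.12 and 0.55 in the treated libraries and summed to 336, 349 and 303 CPM in saline and 240, 330 and 486 in UNC0642; Mgp had 177, 184 and 204 reads against 139, 243 and 320 and Dcn, a matrix proteoglycan, 146, 196 and 138 against 126, 237 and 257. Endothelial markers had 17 of 20 negative after centring (median -0.12) and 12 of 20 in the reads (median -0.06), with Flt1, a receptor of vascular growth factor, at 41.0, 44.8 and 31.9 CPM against 30.5, 31.5 and 47.7. The part of these marker levels in the differences of other genes was not tested.

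**Figure D3:**
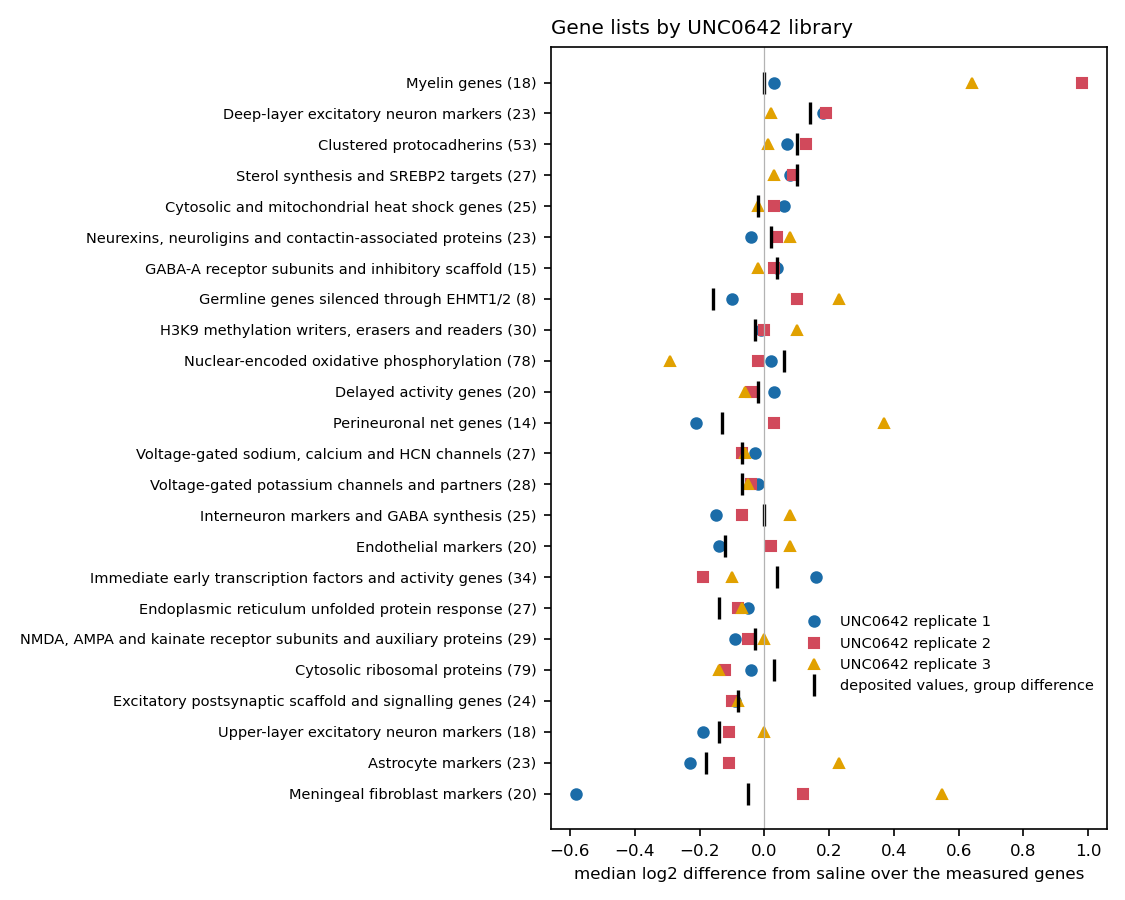
Median log2 difference from saline (x axis) over the measured genes of 24 lists (rows, number of genes in brackets), for each UNC0642 library before centring (symbols) and for the group difference of the deposited values (black bars). The 3 libraries lie close together for the postsynaptic scaffold (-0.09, -0.10 and -0.08) and the unfolded protein response (-0.05, -0.08 and -0.07), and far apart for meningeal (-0.58, 0.12 and 0.55), myelin (0.03, 0.98 and 0.64) and astrocyte markers (-0.23, -0.11 and 0.23).

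Large families of housekeeping genes differed in sign between the fits. Cytosolic ribosomal protein genes had 59 of 79 positive in the deposited values (median 0.03) but 67 of 79 negative in the reads of 5 libraries (median -0.08). Before centring all 3 treated libraries were low, at -0.04, -0.12 and -0.14, and 34 of 79 genes lay below saline in all of them, against 5.27% of all genes. Summed CPM were 15020, 15250 and 15000 in saline and 14540, 13870 and 13250 in UNC0642. Rpl7 had 217, 218 and 226 CPM against 231, 215 and 211, and Rpl22l1 36.2, 31.4 and 33.3 against 37.2, 30.0 and 30.8. Nuclear-encoded oxidative phosphorylation genes had 70 of 78 positive in the deposited values (median 0.06) and 34 of 78 in the reads (median -0.01), with UNC0642 replicate 3 at -0.29 and the others at 0.02 and -0.02. Ndufb4 had 68.7, 62.7 and 76.2 CPM against 75, 73.6 and 50.6, and Atp5g3 231, 231 and 239 against 256, 232 and 188.

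Clustered protocadherins, cell-surface proteins whose combinations give neurons their identity, were modestly higher, with 35 of 53 positive (median 0.10) in the deposited values and 36 of 53 in the reads of 5 libraries (median 0.12). The list medians were 0.07, 0.13 and 0.01. Members share exons at the end of the alpha and gamma clusters, so that their counts are not independent. Pcdhga11 had 13.5, 17.9 and 18.5 CPM against 24.2, 18.5 and 20.4, and Pcdhb6, at low depth, 6, 14 and 17 reads against 27, 26 and 17.

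**Figure D4:**
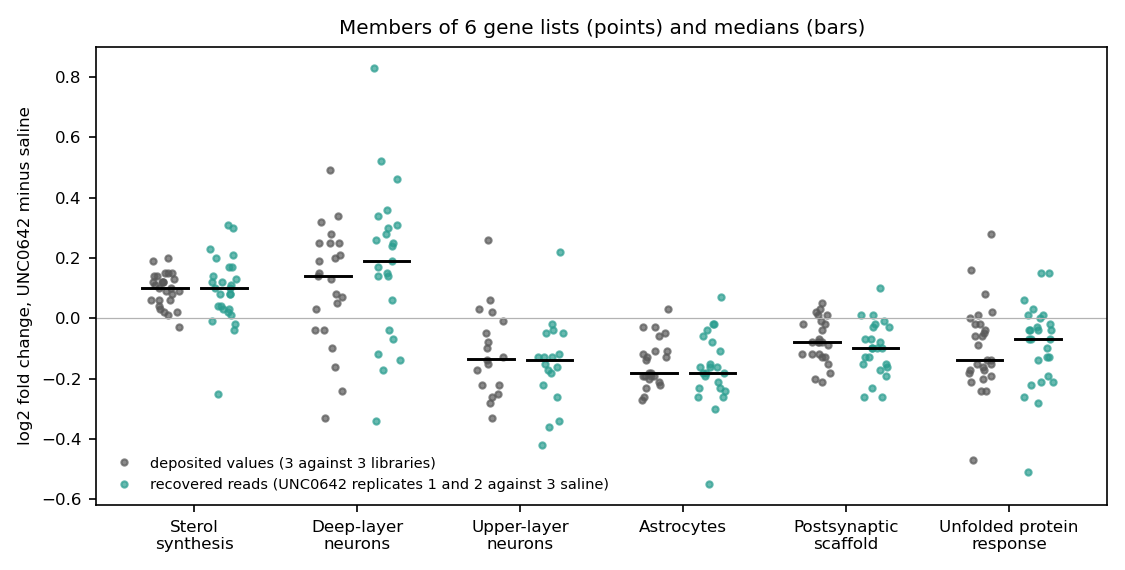
Log2 fold change of UNC0642 minus saline (y axis) for each member of 6 lists (points), in the deposited values (grey) and in the recovered reads of 5 libraries (green), with medians as bars. Sterol synthesis (0.10 and 0.10) and deep-layer markers (0.14 and 0.19) lie above 0 and upper-layer (-0.14 and -0.14), astrocyte (-0.18 and -0.18), postsynaptic scaffold (-0.08 and -0.10) and unfolded protein response genes (-0.14 and -0.07) below it in both.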

How the data were processed

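Total RNA of prefrontal cortex was extracted with Trizol, depleted of ribosomal RNA and sequenced from stranded libraries, per the labels' protocols. The submitters' processing notes name cutadapt, TopHat2, HTSeq and the mm9 build; tool versions and the normalization are not stated there or in the labels. The authors deposited a signal per gene, never negative, under the name CPM, and 9 of 9 single-library files equalled the table. Their log2 behaves as log2 CPM with a prior of 3.000 reads on average, centred per gene over 2 sets of libraries: of 255 divisions, 1 gave equal set means within 2.5e-09, and the next best reached 0.875. Whole reads were recovered for 14444 of 14444 genes, the farthest 1e-05 reads from whole at a tolerance of 0.02. In simulated data of 3000 genes this step returned 100%.

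The first fit, in limma 3.58.1 under R 4.3.3, used a trended prior on log2(value + 0.5), which understates changes of low genes, over all 9 libraries, with Benjamini-Hochberg adjustment and a threshold of 0.05. The second was limma-voom with TMM factors on the recovered reads of the 3 saline libraries and UNC0642 replicates 1 and 2, which lie on 1 side of a division of the reads. CPM in the text are these reads scaled by TMM factors over 9 libraries. No gene was filtered out. Named genes are the 12 of smallest p in each direction in the first fit and 6 in the second, among genes with a mean value of at least 1 (14369 genes), the 4 genes Shank3, Ehmt1, Ehmt2 and Arc, and from each list at most 4 members by p; members named beyond these were chosen after their values were seen, and some genes are not reported here. Of 40 lists with 934 measured members, 24 are described. The members and lists were chosen with earlier results of these data known. Replicate numbers did not pair the samples. Alternatives were other pseudocounts, a filter on low values (3 libraries or more reaching 1), median-of-ratios factors, fewer libraries, a replicate block, voom on other sets of libraries, an adjusted p under 0.1 and leaving out each library; voom on the 6 mutant libraries was added after seeing the data. Promoters are from RefSeq on GRCm38.p6.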

Additional observations from a re-analysis of the deposited data

How the results depend on the processing

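Of 1406 values of the 92 named genes under the alternatives, 1345 kept direction and side of the threshold, 50 turned and 11 became called, 61 genes having no exception; the median over all genes shifted by at most 0.0059. The count of 0 called genes in the reads of 5 libraries became 60 higher and 99 lower with a replicate block on the 2 numbers shared. That fit also left out saline replicate 3 and had few residual degrees of freedom. The block and the smaller set of libraries therefore cannot be told apart. Replicate numbers did not pair samples (correlations of deviations 0.14, -0.14 and -0.21 before centring and -0.14, -0.24 and -0.25 after it). In the deposited values the block called 0. Leaving out a library of the 5 gave 0 to 1 calls higher and 0 to 1 lower, the 1 and 1 being Klf10 and Camk2a without saline replicate 3. In voom on the reads of all 9 libraries, the log2 fold changes that turned were A730017C20Rik, Gabra5 and Rpl7 at -0.01, Cacnb2 at -0.03, Rpl22l1 at -0.05, Atp5g3 at -0.07, Ndufb4 at -0.08, Crym at -0.09, Dusp1 at -0.24, Rorb and Pou3f2 at 0.01, Pik3c2b, Ehmt1 and Phf8 at 0.03, Gabra2 and Ptprz1 at 0.09, Scn4b at 0.11 and Qdpr at 0.15. In voom on the 6 mutant libraries they were Gabra5 and Rpl7 at -0.00, Cacnb2 at -0.02, Rpl22l1 at -0.04, Atp5g3 at -0.06, Ndufb4 at -0.08, Crym at -0.09, Dusp1 at -0.23, Pou3f2 at 0.01, Rorb at 0.02, Pik3c2b at 0.03, Ehmt1 and Phf8 at 0.04, Gabra2 at 0.09, Ptprz1 at 0.10, Scn4b at 0.11 and Qdpr at 0.15. With the division of the reads as a term, and in the reads of 5 libraries, Dusp1 stood at -0.04 and -0.05, Mgp and Rpl22l1 at -0.02 in both, Gabra2 at 0.02, Scn4b at 0.28 and Qdpr at 0.15 and 0.16. In the deposited values, leaving out each library in turn gave Ehmt1 -0.07 to 0.00, Arc -0.38 to 0.05 and Opalin -0.21 to 0.49. These ranges keep the centring, while the voom fits on the reads omit it. The cause of each turn was not tested. Of 640 list medians, 71 moved by over 1 SD. Depth limits genes with few reads, such as Acan, Dynlt1b and Capn11.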

Other observations

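Messenger RNAs that are transported into dendrites were looked at as a list after Camk2a, Ddn and Shank3 had been seen to be lower, so its counts describe these libraries only. In the reads of 5 libraries 14 of 17 such genes were negative, with a median of -0.14, and 11 of 17 lay below all saline libraries in UNC0642 replicates 1 and 2, against 11.6% of all genes. Over all 6 libraries before centring 6 of 17 did so, against 5.27% of all genes, and the list medians of the 3 treated libraries were -0.13, -0.15 and -0.01. Ppp1r9b, which encodes the spine protein spinophilin, had 1400, 1330 and 1280 CPM in saline and 1190, 1150 and 1330 in UNC0642, a log2 fold change of -0.19 (SE 0.05). Psd, a guanine nucleotide exchange factor of the spine, had 730, 742 and 646 CPM against 625, 620 and 582, lower in all 3 treated libraries. Map2, the dendritic microtubule protein, had 773, 881 and 781 CPM against 719, 718 and 1240, where UNC0642 replicate 3 was the highest library. Bdnf, Nrgn and Adcy1 stood at 0.04, 0.06 and 0.02 in the same fit. Camk2a, Dlg4, Dlgap3, Homer1, Shank1 and Shank3 are also members of the postsynaptic scaffold list, so the counts of these lists are not independent.

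Lists not described above were mostly near 0 in the reads of 5 libraries. Autism risk genes had 19 of 49 positive (median -0.01), microglia markers 4 of 18 (median -0.09) and glucocorticoid-induced genes 5 of 19 (median -0.07). Circadian clock genes had 13 of 18 negative (median -0.09), with 6 of 18 below all saline libraries, against 11.6% of all genes. Over all 6 libraries 2 of 18 did so, against 5.27% of all genes. UNC0642 replicate 3 went the other way in these 4 lists before centring. List medians in replicates 1, 2 and 3 were -0.02, -0.03 and 0.13 for autism risk genes and -0.08, -0.11 and 0.25 for microglia markers. They were -0.05, -0.05 and 0.18 for glucocorticoid-induced genes and -0.04, -0.13 and 0.12 for clock genes. Nuclear-retained and imprinted long RNAs had 9 of 10 positive in the reads (median 0.10) and 7 of 10 negative in the deposited values (median -0.07). Neuropeptide precursors had 13 of 18 positive in the deposited values (median 0.11) and 11 of 18 negative in the reads (median -0.05).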
